A study of Mus musculus with 8 samples.

Results

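The 9 genes described here are regulators and markers of osteoblasts and cementoblasts, the cells that lay down bone and the cementum of the tooth root, together with a paracrine hormone and its receptor: Runx2, Sp7, Alpl, Phospho1, Bglap, Ibsp, Cthrc1, Pth1r and Pthlh. They were taken by name from the 56748 genes of the count table, each as the identifier with the largest total count for its symbol. Of the 9, 8 passed the filter on low counts, which Phospho1 did not pass, and 21508 genes passed it in all. RNA was sequenced in 8 libraries of mouse cells sorted for the red fluorescent protein tdTomato from mandibular molars on postnatal day 10, after tamoxifen on postnatal day 3. The 4 cKO libraries are labelled Ctnnb1(-/-) and the 4 cHet libraries Ctnnb1(+/-). The cHet controls thus also lack 1 copy of Ctnnb1, which encodes beta-catenin, and also had tamoxifen. The labels name neither the Cre driver nor the deleted exons. They call the cells CXCL12+ apical papilla cells and the tissue dental pulp, while the extraction protocol speaks of dental follicle.

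Runx2 encodes the transcription factor that starts the osteoblast programme, and Sp7 (osterix) acts downstream of it. Committed cells make tissue-nonspecific alkaline phosphatase (Alpl), and later the mineral-binding matrix proteins bone sialoprotein (Ibsp) and osteocalcin (Bglap). PTHrP, the product of Pthlh, signals through the G protein-coupled receptor Pth1r, and in the developing tooth this pair is known for its part in dental follicle cell fate, root formation and eruption. Beta-catenin carries canonical Wnt signalling, a pathway that promotes osteoblast differentiation.

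The deposited whole-number counts summed to between 44444033 and 50051392 per library. Values are given as CPM, the counts scaled to a common library size with trimmed-mean (TMM) factors. Ctnnb1 averaged 277 ± 39.2 CPM in cKO and 258 ± 40.2 CPM in cHet (SD, n = 4 each; log2 fold change 0.11, edgeR adjusted p = 0.785). Because the counts are sums over whole genes, reads from exons outside a deletion are included and this value cannot check the labels. Cxcl12, the chemokine gene that names the cells, averaged 826 ± 238 CPM in cKO and 149 ± 91.5 CPM in cHet (log2 2.47, edgeR adjusted p = 0.0497). That call was lost with RLE factors (adjusted p = 0.0549), library size alone (0.0523), robust dispersions (0.0513), mesenchymal scaling (0.118), the mesenchyme or the olfactory neuron score as covariate (0.297 and 0.339), and without any 1 library except cKO9 and cHet8 (0.101 to 0.159). Transcripts of other cells were present: all 15 olfactory sensory neuron markers were detected, summing to between 7831 and 10150 CPM in cKO and between 9298 and 15380 CPM in cHet, and 8 neutrophil markers summed to 18510 CPM in cHet12. The 7 ameloblast markers summed to between 4712 and 8553 CPM in cKO and between 2314 and 11460 CPM in cHet. All 8 macrophage markers had a log2 fold change under 0, 6 of them at an unadjusted p under 0.05. Among all 21508 tested genes, 1361 were lower at that threshold. The macrophage markers summed to between 63.2 and 196 CPM in cKO and between 122 and 574 CPM in cHet. The part of these cells in the members' levels was not tested. The 12 genes of a general mesenchyme list, led by Col3a1 and Col1a2, summed to 14200, 7828, 16180 and 21720 CPM in cKO7, cKO9, cKO14 and cKO15, against 9964, 2774, 7878 and 6370 CPM in cHet8, cHet11, cHet12 and cHet14 (exact permutation p = 0.0857). Of the 12, 10 had a log2 fold change above 0, and Dcn (-1.04) and Lum (-0.66), named after their values were seen, lay below it. The 2 libraries that were lowest in their groups for this sum, cKO9 and cHet11, were also the lowest for 7 of the 8 tested members.

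In levels per kilobase of annotated exon, Cthrc1 and Ibsp were the most abundant members and Phospho1 the least. In cKO the mean levels ran from Cthrc1 (151 CPM per kb) through Ibsp (138), Pthlh (83.0), Alpl (58.1), Sp7 (47.4), Pth1r (22.0), Bglap (14.7) and Runx2 (4.52) to Phospho1 (0.0304). In cHet the order was Ibsp (169), Cthrc1 (43.0), Pthlh (38.4), Alpl (33.1), Sp7 (17.2), Pth1r (11.8), Bglap (10.8), Runx2 (3.68) and Phospho1 (0.0178). Thus Cthrc1 and Ibsp stood in opposite order in the 2 groups, and the other 7 kept theirs. The library ranges of neighbours in these orders overlapped, except that Runx2 lay below Bglap in cHet and Phospho1 lay below Runx2 in both groups.

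None of the 8 tested members was called by edgeR's quasi-likelihood test at an adjusted p under 0.05, against 1.13% of all tested genes (232 higher and 12 lower in cKO). At an unadjusted p under 0.05, 4 of 8 were higher in cKO and none lower, beside 17.1% of all tested genes passing in either direction and 10.8% higher. The log2 fold change was above 0 for 7 of 8, beside 47.5% of all tested genes, and its median was 0.85 beside -0.03 over all tested genes. Other tools called 2 of these 8 genes higher: Cthrc1 and Sp7 passed in DESeq2 (adjusted p = 0.00235 and 0.0293, with 8.75% of its tested genes called and 6.24% higher) and in limma voom with quality weights (0.0330 and 0.0454, with 7.22% called and 5.96% higher). In bulk libraries fewer cells of a type and less RNA per cell cannot be told apart, and the labels do not say that the libraries came from separate animals, so each p measures the spread between these libraries.

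**Figure D1:**
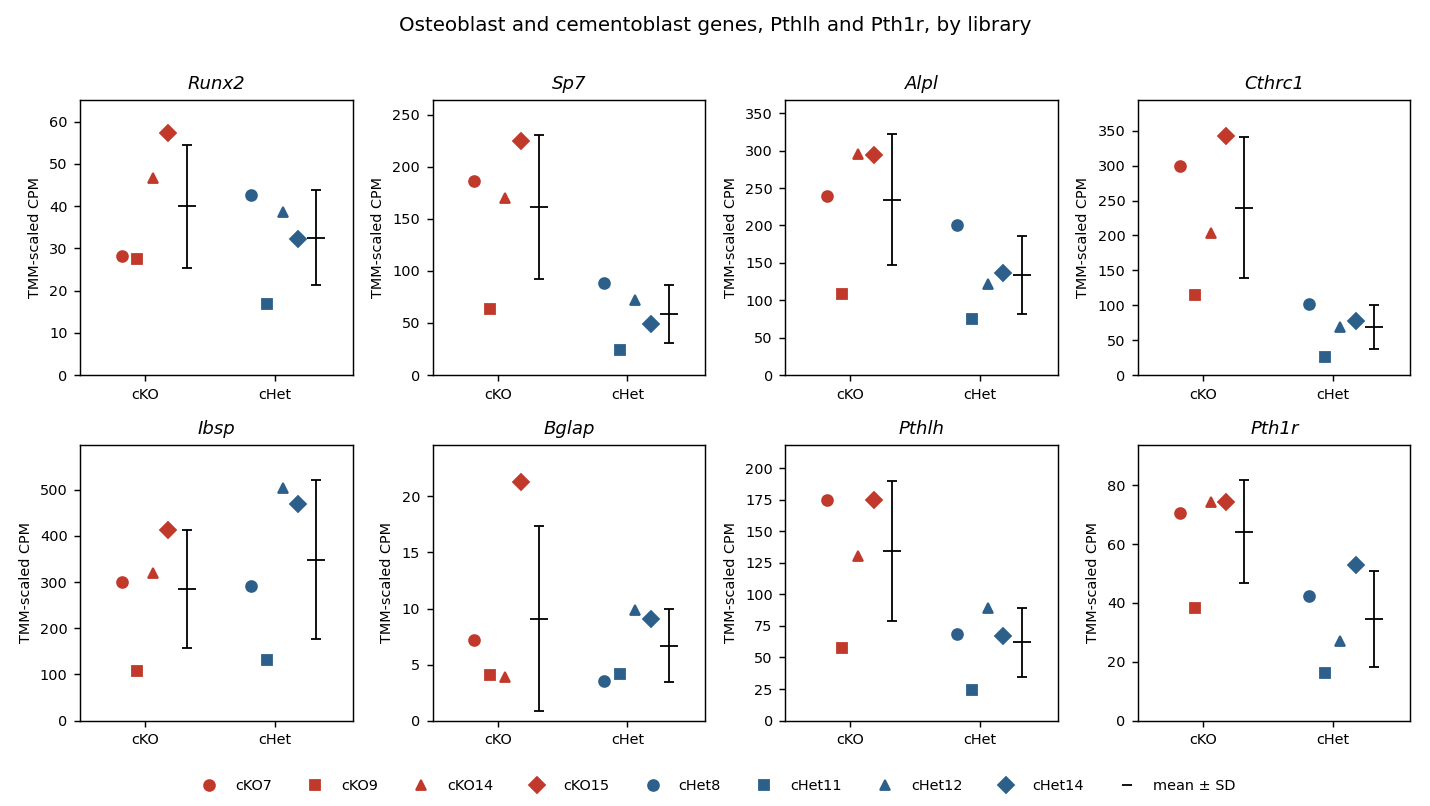
TMM-scaled CPM of the tested genes in each library, cKO on the left and cHet on the right of each panel, with horizontal bars for the mean and vertical bars for the SD of 4 libraries. The cKO and cHet points of Cthrc1 do not overlap, those of the other 7 genes do, and cKO9 and cHet11 are usually the lowest of their group.

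Of the transcription factor genes, Sp7 had the higher average in cKO and Runx2 differed by less than the spread between libraries. Sp7, which osteoblasts need in order to mature, stood at 186, 63.1, 170.1 and 225 CPM in cKO7, cKO9, cKO14 and cKO15, against 88.4, 24.1, 72.4 and 49.5 CPM in cHet8, cHet11, cHet12 and cHet14. Of the cKO libraries 3 lay above every cHet library, and cKO9 lay inside the cHet range. Its mean was 161 ± 69.1 CPM in cKO and 58.6 ± 28.0 CPM in cHet (log2 1.46, SE 0.47, edgeR adjusted p = 0.178), and an exact permutation test of the means gave p = 0.0857. Its log2 fold change was 0.06 with the mesenchyme score as covariate, 0.28 under mesenchymal scaling and 0.36 with the olfactory neuron score. Runx2 stood at 28.3, 27.6, 46.8 and 57.3 CPM in the cKO libraries, against 42.6, 16.9, 38.5 and 32.1 CPM in the cHet libraries, in the same order of libraries. The ranges overlapped, with cKO14 and cKO15 above all cHet libraries and cHet11 below all cKO libraries. The means were 40.0 ± 14.6 CPM in cKO and 32.5 ± 11.3 CPM in cHet (log2 0.30, SE 0.34, edgeR adjusted p = 0.725; exact p = 0.457).

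The Runx2 promoter is shown because Runx2 is known to bind its own promoter and Wnt signalling acts through TCF/LEF factors. The RefSeq promoter table (GRCm38.p6, 250 bases before to 50 after each start) held 10 windows for 7 of the 9 genes. In the Runx2 window, chr17:44814578-44814877 on the minus strand, the RUNX core TGTGGT was found in its reverse form ACCACA at -80, 24 and 32 from the start, and the TCF/LEF core CTTTGA at -103. These are the capitals in the sequence, read 5′ to 3′.
Runx2 promoter: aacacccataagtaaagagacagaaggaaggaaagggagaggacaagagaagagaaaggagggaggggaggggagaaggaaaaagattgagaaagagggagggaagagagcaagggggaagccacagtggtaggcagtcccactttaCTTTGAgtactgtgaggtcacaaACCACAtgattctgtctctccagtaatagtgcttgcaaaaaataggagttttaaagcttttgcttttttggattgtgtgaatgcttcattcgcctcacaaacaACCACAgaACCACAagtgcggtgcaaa
Searched on both strands with no overlap between these motifs, TGTGGT occurred in 2 of the 10 windows and in 16.8% of all 32851 promoters in the table, and CTTTGA in 2 of the 10 and in 16% of all. The cAMP response element core TGACG, the element through which PTHrP signalling can act, occurred in 4 of the 10 windows, in Ibsp at -79, Pth1r at -161, Alpl at -128 and Phospho1 at -24, and in 20.8% of all promoters. A match of letters is not a bound site.

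The mineralization enzymes were represented by 1 gene of high and 1 of very low level. Alpl, whose enzyme frees phosphate for mineral by splitting pyrophosphate, stood at 239, 109, 296 and 294 CPM in the cKO libraries, against 201, 75.0, 121 and 136 CPM in the cHet libraries. The 3 highest values were cKO and the lowest was cHet11, but cKO9 lay below 3 of the cHet libraries. The means were 234 ± 87.9 CPM in cKO and 133 ± 52.1 CPM in cHet (log2 0.81, SE 0.37, edgeR adjusted p = 0.311; exact p = 0.114). Phospho1, a phosphatase of matrix vesicles in mineralizing cells, had 3, 7, 0 and 1 counts in the cKO libraries and 1, 1, 4 and 1 counts in the cHet libraries. Its sums of 11 counts in cKO and 7 in cHet are too few for a difference to be detectable at this depth.

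Among the matrix genes, Cthrc1 showed the widest separation of the groups. Cthrc1 encodes a secreted collagen triple helix repeat protein made by osteoblasts and by fibroblasts of healing tissue. It stood at 299, 115, 203 and 343 CPM in the cKO libraries, against 102, 26.0, 68.9 and 76.7 CPM in the cHet libraries. All 4 cKO libraries lay above all 4 cHet libraries, a separation that 10.1% of all tested genes had in either direction and 6.46% in this one. The means were 240 ± 102 CPM in cKO and 68.5 ± 31.7 CPM in cHet, a ratio of 3.51 (log2 1.81, SE 0.46, edgeR adjusted p = 0.101), and the exact permutation p was 0.0286, the smallest that 4 against 4 libraries allow. Without any 1 of the cHet libraries the exact p was 0.0571, while the cKO libraries still lay above all remaining cHet libraries. Fewer libraries allow fewer assignments, so this p moves in coarser steps. EdgeR without cKO9 called Cthrc1 (log2 2.04, adjusted p = 0.0431, with 4.32% of its tested genes called and 3.67% higher). With the mesenchyme score as covariate its log2 fold change was 0.53, and with the olfactory neuron score 1.01.

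Ibsp, which nucleates mineral in bone and cementum, was the only tested member with a lower mean in cKO. It stood at 299, 107, 320 and 412 CPM in the cKO libraries, against 292, 130.2, 503 and 470.1 CPM in the cHet libraries. The highest values were those of cHet12 and cHet14, and cHet8 and cHet11 lay within the cKO range. The means were 285 ± 128 CPM in cKO and 349 ± 173 CPM in cHet (log2 -0.29, SE 0.49, edgeR adjusted p = 0.820; exact p = 0.543), a difference smaller than the spread between libraries.

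Bglap, the osteocalcin gene of late osteoblasts, was low, at 7.20, 4.03, 3.85 and 21.3 CPM in the cKO libraries and 3.57, 4.17, 9.88 and 9.09 CPM in the cHet libraries. A single library, cKO15, held the highest value and set most of the cKO spread. The means were 9.10 ± 8.29 CPM in cKO and 6.68 ± 3.27 CPM in cHet (log2 0.45, SE 0.63, edgeR adjusted p = 0.783; exact p = 0.800). Without 1 library in turn the log2 fold change ran between -0.41 and 0.72.

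Mouse osteocalcin is encoded by neighbouring near-identical genes, so the split of reads between them is uncertain. The coding sequences of Bglap and Bglap2 on chromosome 3, built from the GENCODE M21 annotation and read 5′ to 3′, differ at 4 of 285 bases (98.6% identical). Those 4 bases are in capitals.
Bglap coding sequence: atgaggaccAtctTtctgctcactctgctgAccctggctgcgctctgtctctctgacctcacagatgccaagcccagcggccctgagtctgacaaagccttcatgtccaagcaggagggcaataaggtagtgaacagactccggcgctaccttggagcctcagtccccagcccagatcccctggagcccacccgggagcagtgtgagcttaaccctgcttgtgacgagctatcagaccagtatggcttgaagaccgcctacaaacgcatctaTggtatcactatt
Bglap2 coding sequence: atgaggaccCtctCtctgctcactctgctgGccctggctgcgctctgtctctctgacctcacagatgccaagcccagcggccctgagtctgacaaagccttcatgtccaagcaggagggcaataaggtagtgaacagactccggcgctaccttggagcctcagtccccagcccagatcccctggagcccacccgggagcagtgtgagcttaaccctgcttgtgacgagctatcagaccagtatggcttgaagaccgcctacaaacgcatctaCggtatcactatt
Bglap2 stood at 8.90, 3.67, 6.19 and 27.2 CPM in the cKO libraries, against 1.79, 2.28, 4.59 and 4.02 CPM in the cHet libraries (log2 1.86, SE 0.65, edgeR adjusted p = 0.203). Here too cKO15 was far above the rest, and cKO9 lay within the cHet range. DESeq2 called Bglap2 (adjusted p = 0.0345) and voom did not (0.143), and without cKO15 its log2 fold change in edgeR was 0.98 (adjusted p = 0.478). With the counts of Bglap and Bglap2 summed, an alternative chosen after seeing the data, the log2 fold change was 1.06 (edgeR adjusted p = 0.431), against 0.45 for Bglap alone. Bglap3, whose coding sequence differs from that of Bglap at 13 bases, had a log2 fold change of -0.16 (SE 0.28, edgeR adjusted p = 0.825).

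**Figure D2:**
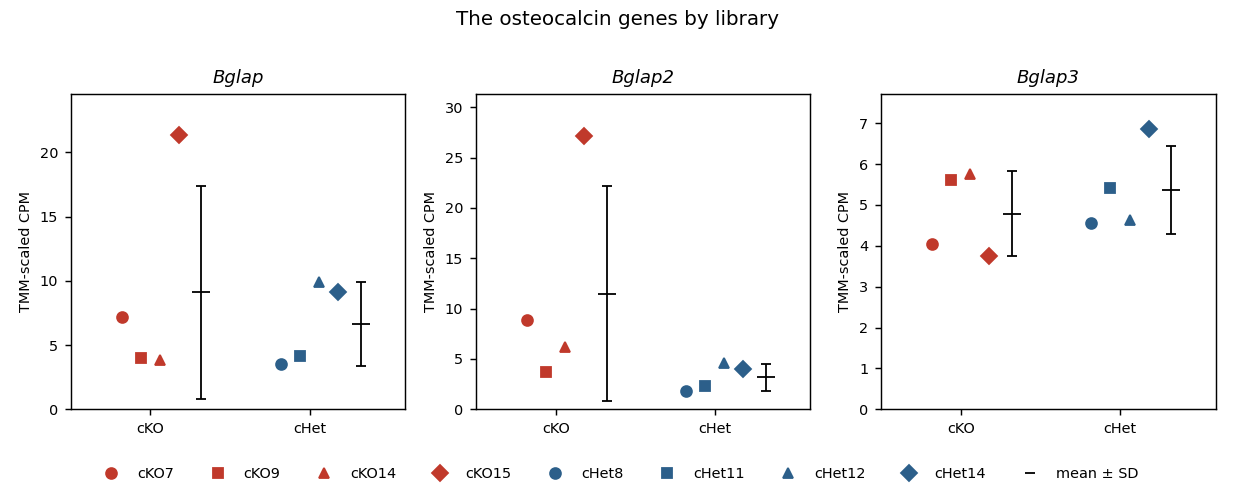
TMM-scaled CPM of the osteocalcin genes Bglap, Bglap2 and Bglap3 in each library, cKO left and cHet right, with mean and SD of 4 libraries; each panel has its own axis. The point of cKO15 stands above all others for Bglap and Bglap2 and is the lowest cKO point for Bglap3.

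The Bglap promoter is shown because it carries the classic RUNX element of osteocalcin. In chr3:88384417-88384716 (GRCm38.p6, RefSeq, minus strand) the core stood at -132 from the start as ACCACA, in capitals.
Bglap promoter: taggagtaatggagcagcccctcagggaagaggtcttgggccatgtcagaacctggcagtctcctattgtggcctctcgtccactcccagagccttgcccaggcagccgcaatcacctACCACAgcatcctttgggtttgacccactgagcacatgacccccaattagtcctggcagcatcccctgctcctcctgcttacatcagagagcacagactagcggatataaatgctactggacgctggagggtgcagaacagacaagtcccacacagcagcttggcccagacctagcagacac
The ratio of Runx2 to Bglap counts was 3.92, 6.81, 12.1 and 2.69 in the cKO libraries and 11.9, 4.03, 3.89 and 3.53 in the cHet libraries. The mean log2 ratio differed by 0.10 (exact p = 0.857, and 0.857 adjusted over the 3 ratios examined), and that of Runx2 to Ibsp by 0.58 (exact p = 0.200, adjusted 0.600).

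The ligand and its receptor were both higher in cKO on average, with overlapping groups. Pthlh stood at 175, 57.2, 130.4 and 175 CPM in the cKO libraries, against 68.3, 24.2, 89.2 and 66.9 CPM in the cHet libraries. All cKO libraries except cKO9 lay above the highest cHet library. The means were 134 ± 55.6 CPM in cKO and 62.1 ± 27.3 CPM in cHet (log2 1.11, SE 0.45, edgeR unadjusted p = 0.0360, adjusted p = 0.254; exact p = 0.114). Pth1r stood at 70.5, 38.1, 74.1 and 74.3 CPM in the cKO libraries, against 42.3, 16.2, 26.9 and 52.7 CPM in the cHet libraries. Again 3 cKO libraries, close to each other, lay above all cHet libraries and cKO9 lay among them. The means were 64.2 ± 17.5 CPM in cKO and 34.5 ± 16.2 CPM in cHet (log2 0.90, SE 0.37, edgeR unadjusted p = 0.0408, adjusted p = 0.268; exact p = 0.0857). With the mesenchyme score as covariate the log2 fold change was -0.15 for Pthlh and 0.03 for Pth1r, and with the olfactory neuron score 0.36 and 0.61 in the same order.

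The ratio of ligand to receptor did not differ between the groups beyond the spread of the libraries. It is the ratio of counts and not of levels per length. The ratio of Pthlh to Pth1r counts was 2.48, 1.5, 1.76 and 2.36 in the cKO libraries and 1.61, 1.5, 3.31 and 1.27 in the cHet libraries. Pthlh counts exceeded Pth1r counts in all 8 libraries, and the mean log2 ratio differed by 0.15 (exact p = 0.714, adjusted over the 3 ratios 0.857), which is within the spread of either group.

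**Figure D3:**
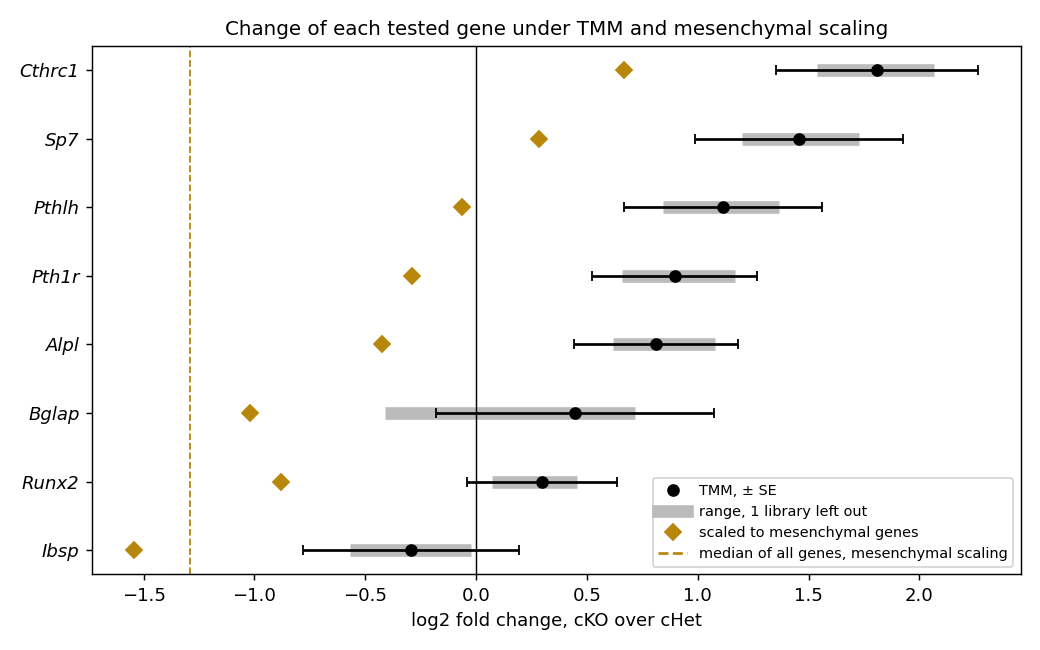
Log2 fold change (cKO over cHet) of the 8 tested genes: black points with SE under TMM scaling, grey bars for the range when 1 library is left out, and diamonds under scaling to the summed counts of 12 mesenchymal genes. Under TMM all but Ibsp have points above 0; under mesenchymal scaling only Cthrc1 and Sp7 do, while the dashed line shows the median of all tested genes, -1.29.

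Each member was also set against the sum of the mesenchymal genes within its own library. That sum was itself higher in cKO by a log2 of 1.20, and scaling to it put the median log2 fold change of all tested genes at -1.29. In the fit with that scaling, Cthrc1 (0.67) and Sp7 (0.28) lay above 0, Runx2 (-0.88) and Bglap (-1.02) lay below 0 but above that median, and Ibsp (-1.54) lay below it. Per 1000 counts of the 12 mesenchymal genes, Runx2 had 1.99, 3.52, 2.89 and 2.64 counts in the cKO libraries and 4.28, 6.08, 4.89 and 5.04 counts in the cHet libraries. Every cKO library lay below every cHet library (log2 difference -0.90, exact p = 0.0286). Ibsp had 21.1, 13.7, 19.8 and 19.0 counts per 1000 in the cKO libraries and 29.3, 46.9, 63.8 and 73.8 in the cHet libraries (log2 difference -1.48, exact p = 0.0286). The cKO libraries lay close together and below all cHet libraries, which spread widely. Cthrc1 had 21.0, 14.7, 12.6 and 15.8 counts per 1000 in the cKO libraries and 10.3, 9.37, 8.75 and 12 in the cHet libraries, with every cKO library above every cHet library (log2 difference 0.65, exact p = 0.0286).

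On this scale 10.7% of all tested genes had cKO libraries entirely below the cHet libraries and 1.29% entirely above, so the lower shares of Runx2 and Ibsp have the direction that was common among all genes. With the mesenchyme score as covariate, edgeR gave a log2 fold change of -1.69 for Ibsp (adjusted p = 0.633) and -0.69 for Runx2 (adjusted p = 0.608). The median over all tested genes in that fit was 0.0157. The olfactory neuron sum differed by a log2 of -0.40, and its part in these shares was not tested. The remaining members had overlapping shares, with log2 differences of 0.26 for Sp7 (exact p = 0.114), -0.07 for Pthlh (0.800), -0.22 for Pth1r (0.486), -0.41 for Alpl (0.0857), -0.88 for Phospho1 (0.371) and -0.996 for Bglap (0.171). These exact p-values are unadjusted over 9 members. Each of the 3 separated shares gave an exact p of 0.0571 in some of the comparisons without 1 library: Runx2 without cHet11, Ibsp without any 1 cKO library, and Cthrc1 without cKO7 or any 1 cHet library. The groups stayed apart in all of these comparisons. Fewer libraries allow fewer assignments, so these p-values move in coarser steps and do not show that a separation rests on 1 library. Leaving Col3a1, the most abundant gene, out of the mesenchymal sum left the 3 separations in place, with log2 differences of -0.68 for Runx2, -1.26 for Ibsp and 0.86 for Cthrc1.

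**Figure D4:**
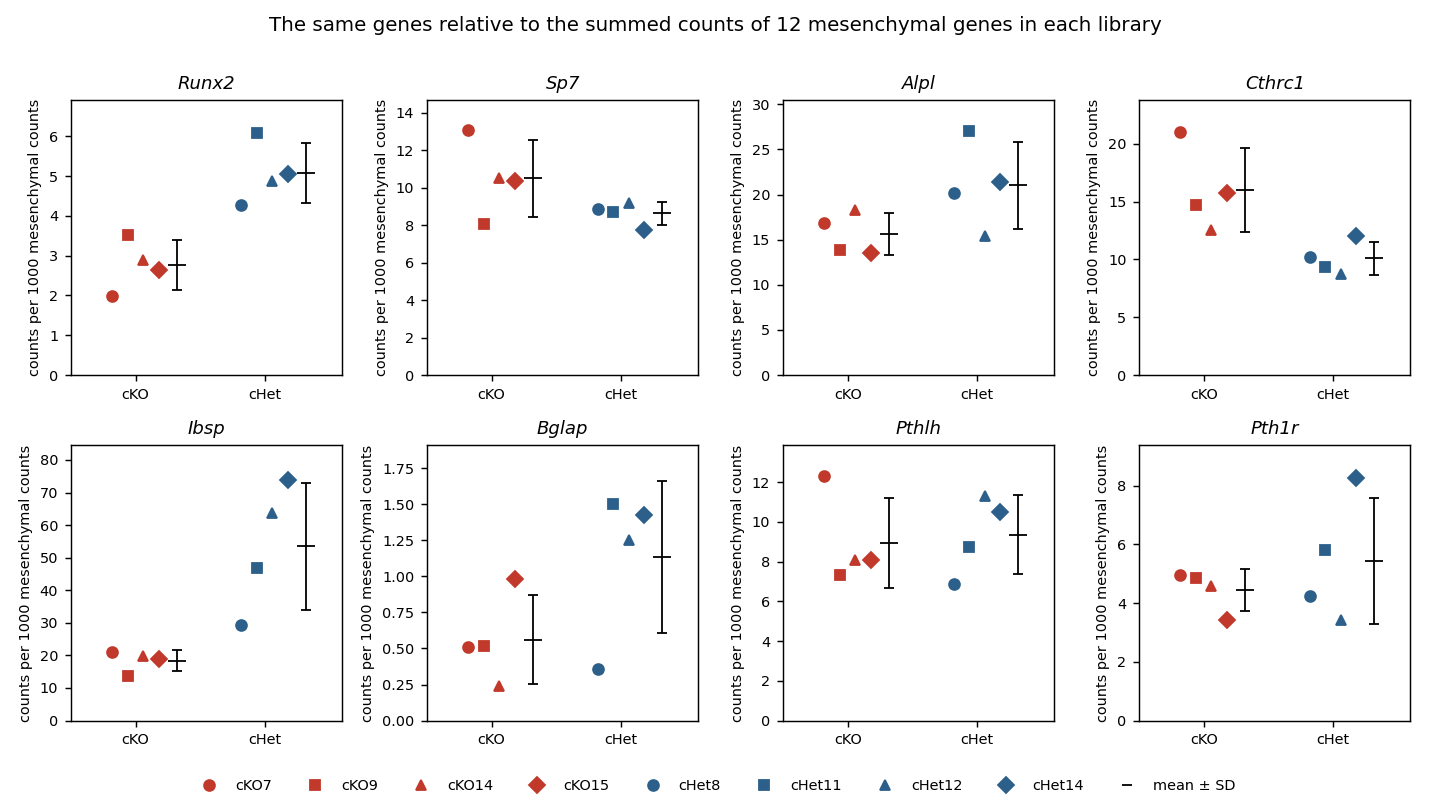
Counts of each tested gene per 1000 counts of 12 mesenchymal genes in the same library, cKO left and cHet right, with mean and SD of 4 libraries. Runx2 and Ibsp are lower in every cKO library than in any cHet library and Cthrc1 is higher; the other 5 genes overlap.

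The marker sums of osteocytes, odontoblasts and osteoclasts, the other cells of hard tissue, overlapped between the groups. The 7 osteocyte markers summed to between 34.7 and 109 CPM in cKO and between 33.9 and 103 CPM in cHet, with Sost, the defining osteocyte gene, at 0 in all cKO libraries and at most 0.302 CPM in cHet. The 7 odontoblast markers summed to between 220 and 555 CPM in cKO and between 139 and 412 CPM in cHet, while the genes of that list split. Dlx3, also counted as a papilla marker, was called higher (log2 2.20, edgeR adjusted p = 0.0377). EdgeR called no gene at all under mesenchymal scaling or without cKO14, cHet12 or cHet14, so this call was lost there. Nes (log2 1.645) was higher at an unadjusted p under 0.05. Smpd3 (log2 -1.43) and Dspp (log2 -1.23), the gene of the main non-collagenous dentin proteins, were lower at that threshold. These genes were named after their values were seen. The 8 osteoclast markers summed to between 204 and 318 CPM in cKO and between 185 and 285 CPM in cHet. Dental papilla markers were between 1785 and 4026 CPM in cKO and between 362 and 1199 CPM in cHet (exact p = 0.0286), and dental follicle markers between 3212 and 8904 CPM in cKO and between 842 and 2612 CPM in cHet (exact p = 0.0286). Adjusted over the 15 marker lists, p was 0.214 for papilla and follicle alike. The part of these cell types in the levels of Sp7, Cthrc1, Pthlh and Pth1r was not tested.

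Patterns over the 8 libraries were compared as the root mean square difference of centred log2 CPM among the 13147 tested genes whose mean was 5 CPM or more, as a description of libraries that share cell content. Among the nearest to Runx2 were Adamts1 (0.15), a secreted protease, and Emp1 (0.18), a membrane protein, beside a median of 0.60 over all genes compared. Nearest to Ibsp were Dmp1 (0.26), an acidic matrix protein of osteocytes and odontoblasts, Omd (0.26), the osteoblast proteoglycan osteomodulin, and Pxdc1 (0.31), beside a median of 0.84. Nearest to Pthlh were Kazald1 (0.12), Tmem119 (0.16), a membrane protein of osteoblasts and microglia, and Olfml2b (0.19), beside a median of 0.93. Nearest to Pth1r were Ldlrad4 (0.17), Tnfrsf22 (0.19) and 2810455O05Rik (0.20), beside a median of 0.78. Among the members themselves, Sp7 ranked 51 by nearness to Pthlh (0.29) and Alpl ranked 57 by nearness to Pth1r (0.31). Ibsp and Cthrc1, both matrix genes, were far apart (1.14).

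The genes around the 9 members were followed in 5 lists holding 96 different tested genes. Of these edgeR called 3 higher and none lower, where 1.08% of all tested genes were called higher and 0.0558% lower. At an unadjusted p under 0.05, 10.8% of all 21508 tested genes were higher and 1361 genes were lower. DESeq2 called 6.24% of its 22290 tested genes higher and 561 genes lower. Voom called 5.96% higher, and edgeR without cKO9 3.67%. These shares stand beside the counts of all 5 lists. Of the 20 tested partners of Runx2 and osteoblast transcription factors, edgeR called 2 higher (DESeq2 11, voom 12), 12 were higher at an unadjusted p under 0.05 and none lower, with a median log2 fold change of 1.01. The 2 called were Sox4, an HMG-box factor of progenitors that supports osteoblast differentiation, at 212 ± 27.0 CPM in cKO and 96.9 ± 12.4 CPM in cHet (log2 1.13, edgeR adjusted p = 0.0271), and Foxc2, a forkhead factor of skeletal mesenchyme, at 30.6 ± 9.26 CPM in cKO and 5.30 ± 2.19 CPM in cHet (log2 2.53, adjusted p = 0.0376). Under mesenchymal scaling these log2 fold changes were -0.14 for Sox4 and 1.30 for Foxc2. Both calls were lost under that scaling (adjusted p = 0.798 for Sox4 and 0.118 for Foxc2) and without any 1 of cKO7, cKO14, cKO15, cHet11, cHet12 and cHet14 (adjusted p between 0.0716 and 0.131). They were also lost with the mesenchyme score as covariate (0.154 for Sox4 and 0.448 for Foxc2) and with the olfactory neuron score (0.281 and 0.459). Hdac4, a deacetylase that represses Runx2 activity, had a log2 fold change of 0.89 (adjusted p = 0.0739) and Twist2, a basic helix-loop-helix repressor of it, 2.03 (adjusted p = 0.0814).

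None of the 21 bone matrix genes was called by edgeR, 11 were higher at an unadjusted p under 0.05 and none lower, and the median log2 fold change was 1.005. DESeq2 called 8 of them higher, voom 6, and edgeR without cKO9 6, while edgeR without any other 1 library called none. The smallest p-values were those of the fibrillar collagen Col5a1 (385 ± 151 CPM in cKO and 117 ± 39.8 CPM in cHet, log2 1.72, edgeR adjusted p = 0.0596), the collagen chaperone Fkbp10 (log2 1.70, adjusted p = 0.0897), the collagen-binding proteoglycan Fmod (log2 2.07, adjusted p = 0.0897) and Crtap, a partner in collagen prolyl hydroxylation (log2 1.72, adjusted p = 0.0991). Col5a1 is also one of the 12 mesenchymal genes. These 4 serve fibrillar collagen in many connective tissues and are not particular to bone.

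Of the 13 tested mineralization enzymes and transporters, edgeR called 1 higher and none lower, while 7 were higher and 3 lower at an unadjusted p under 0.05, with a median log2 fold change of 0.46. DESeq2 called 6 higher and 2 lower, voom 7 higher, and edgeR without cKO9 5 higher, while edgeR without any other 1 library called none. The 1 called was Mmp13, a collagenase of osteoblasts and hypertrophic chondrocytes, at 130 ± 25.0 CPM in cKO and 55.1 ± 17.3 CPM in cHet (log2 1.24, edgeR adjusted p = 0.0497). Its call was lost with RLE factors (adjusted p = 0.0536), library size alone (0.0565), no expression filter (0.0503), robust dispersions (0.0513) and without any 1 library except cKO9 (0.0788 to 0.160). It was also lost with the mesenchyme or the olfactory neuron score as covariate (adjusted p = 0.497 and 0.339). Under mesenchymal scaling its log2 fold change was -0.09 (adjusted p = 0.882). Smpd3, a sphingomyelinase needed for bone and dentin mineral, was lower in cKO, at 64.1 ± 18.9 CPM against 173 ± 71.4 CPM in cHet (log2 -1.43, edgeR adjusted p = 0.110). DESeq2 called it lower (adjusted p = 0.00506), as did edgeR with the mesenchyme score as covariate (log2 -2.51, adjusted p = 0.0121). Voom did not call it, nor did edgeR under mesenchymal scaling (adjusted p = 0.118) or without any 1 library. The groups overlapped, with cHet11 at 69.3 CPM below cKO15 at 88.95 CPM. Anxa5, an annexin of matrix vesicles (log2 0.70, edgeR adjusted p = 0.100), and the gelatinase Mmp2 (log2 1.72, edgeR adjusted p = 0.105) were called by DESeq2 (0.0142 and 0.00293), voom (0.0206 and 0.0243) and edgeR without cKO9 (0.0222 and 0.0410). EdgeR called neither without any other 1 library. Nor were they called under mesenchymal scaling (adjusted p = 0.290 and 0.241) or with the mesenchyme score as covariate (0.868 and 0.795).

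Of the 27 tested genes of PTHrP signalling edgeR called none, 8 were higher and 1 was lower at an unadjusted p under 0.05, and the median log2 fold change was 0.19. DESeq2 called 4 higher and 1 lower, and voom and edgeR without cKO9 called 2 higher each. EdgeR called 1 higher without cHet8 and none without any other 1 library. Ramp2, an accessory protein of class B receptors that can bind Pth1r, stood at 34.8 ± 12.6 CPM in cKO and 8.23 ± 4.46 CPM in cHet (log2 2.08, edgeR adjusted p = 0.0633), and was called by DESeq2 (0.000101) and voom (0.0140). Its log2 fold change was 0.89 under mesenchymal scaling (edgeR adjusted p = 0.162) and 1.11 with the mesenchyme score as covariate (0.649). The G protein subunit gene Gna11 had a log2 fold change of 0.84 (adjusted p = 0.113), the cyclase Adcy6 1.21 (0.174), and Slc9a3r1, the scaffold NHERF1 that binds the receptor's tail, -0.64 (0.135). Of the 16 tested genes that respond to PTHrP or parathyroid hormone, Mmp13, also in the list above, was the 1 that edgeR called (DESeq2 called 3 higher, voom 2), and 6 were higher and none lower at an unadjusted p under 0.05, with a median of 0.51. Dkk1, a secreted Wnt inhibitor, had a log2 fold change of 2.81 (adjusted p = 0.0798). Tnfsf11, the osteoclast-inducing ligand RANKL, stood at 5.47 ± 3.54 CPM in cKO and 0.779 ± 0.650 CPM in cHet (log2 2.81, SE 0.86, adjusted p = 0.161), and Nr4a3, an immediate early gene, was near 1 CPM (log2 1.44, adjusted p = 0.195).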

How the data were processed

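RNA was sequenced in 8 libraries, 4 cKO and 4 cHet. Low-input RNA was amplified with SMART-Seq v4 chemistry, per the labels' protocols. It covers whole transcripts and tags neither strand nor molecule. The table holds the raw counts of each gene that the authors deposited, with no normalization. Trim Galore, STAR and the builds GRCm39 and mm39 are named in the submitters' processing notes; how reads were counted, the annotation and the versions were not given in the sources used here. Column numbers match no sample title, so each column was assigned to its group only. Symbols were found for 52073 of 56748 genes. Libraries summed to 44444033 to 50051392 counts, and edgeR's common biological coefficient of variation came to 0.553.

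Groups were compared over all 21508 genes passing edgeR's filter by group, with edgeR 4.0.16 in R 4.3.3, TMM factors and the quasi-likelihood test, and p-values were Benjamini-Hochberg adjusted over all of them, with a threshold of 0.05. The SE is the fold change divided by the root of its F statistic. Single values per library were compared by two-sided exact permutation over the 70 assignments of 4 against 4, or over the fewer assignments left without 1 library. Shares and ratios had 1 count added. Levels per kilobase used exon lengths of GENCODE M21, which is on GRCm38, so no gene coordinates on the files' build are given. The script was tested on simulated counts with known changes. At an adjusted p under 0.05 it recovered 57 of 100 simulated 4-fold changes and 90 of 100 simulated 16-fold changes. Of its 154 calls 7 were false. A gene that was not called is therefore not shown to be unchanged.

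The members and lists were chosen with earlier results of these data known. All 9 members are named, with up to 4 genes of smallest p from each wider list, the 3 genes nearest in pattern to Runx2, Ibsp, Pth1r and Pthlh, Ctnnb1 and Cxcl12, and from marker lists those most abundant or at 0. One gene that this rule names is not reported here. Bglap2 and Bglap3 were added because of their likeness to Bglap. Alternatives were RLE factors, library size alone, scaling to mesenchymal genes, a filter of 1 CPM in 4 libraries, no filter, DESeq2 1.42.0, limma 3.58.1 voom with quality weights, robust dispersions, a mesenchyme or olfactory neuron score as covariate, omission of each library in turn, a pseudocount of 5, and the sum of Bglap and Bglap2.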

Additional observations from a re-analysis of the deposited data

Results flagged for a closer look

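In 11 of 114 groups of 4 libraries examined, 1 library lay far from the other 3 by Dixon's criterion (the gap to its nearest neighbour as a share of the group's range). The criterion's rate of about 1 in 20 by chance holds for independent, normally distributed values. These groups share genes and libraries and were not log-transformed, so 11 of 114 cannot be set against that rate. Among the members, Pth1r was lowest of the cKO libraries in cKO9, at 38.1 CPM. Phospho1 was highest of the cHet libraries in cHet12, at 0.0850 CPM. Pthlh per 1000 mesenchymal counts was highest of the cKO libraries in cKO7, at 12.3. Among cHet libraries, the ratio of Runx2 to Bglap counts was highest in cHet8, at 11.9, and that of Pthlh to Pth1r in cHet12, at 3.31. Of the wider lists, Foxc2 was lowest among cKO libraries in cKO9 (16.9 CPM), Fmod highest among cHet libraries in cHet14 (191 CPM) and Dkk1 highest among them in cHet8 (7.61 CPM). Of the marker sums, endothelial markers were highest among cKO libraries in cKO14 (31.5 CPM). In cHet12 the epithelial markers were lowest (563 CPM) and the neutrophil markers highest (18510 CPM) of the cHet libraries.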

How the results depend on the processing

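No paired analysis was possible because the column numbers match no sample title and the groups share only 1 of them. Of all genes, 232 were called higher and 12 lower; the counts were 1390 and 561 in DESeq2, 1281 and 271 in voom, 8 and 3 with the mesenchyme score as covariate, 1 and 0 with the olfactory score, 0 and 0 under mesenchymal scaling (8594 at an unadjusted p under 0.05), and between 0 and 816 higher and 0 and 144 lower without 1 library in turn. Lower calls were 5 without a filter and 7 with robust dispersions. Library size alone moved the median of all genes to -0.12 and mesenchymal scaling to -1.29.

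Of the members, DESeq2 and voom each called 2 higher, and edgeR called between 0 and 1 without 1 library. The wider lists together had 31 higher and 3 lower calls in DESeq2, 28 higher in voom, 0 higher under mesenchymal scaling, 0 higher and 1 lower with the mesenchyme score, 0 higher with the olfactory score, and between 0 and 20 higher without 1 library.

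Under mesenchymal scaling, the mesenchyme score and the olfactory score in turn, the log2 fold change was -0.88, -0.69 and -0.39 for Runx2, -0.43, -0.24 and -0.0081 for Alpl, and -1.02, -0.75 and -0.36 for Bglap. Scaling also gave -0.29 for Pth1r, -0.065 for Pthlh (-0.15 with the mesenchyme score), -0.62 for Anxa5, -0.45 for Gna11, -0.33 for Hdac4, -0.093 for Mmp13 and -0.14 for Sox4. Voom gave 0.069 for Ibsp. Cthrc1 and Sp7 kept a positive value under all 19 alternatives, between 0.53 and 2.07 for Cthrc1 and between 0.06 and 1.81 for Sp7. The mesenchymal scaling shifts all genes, and its all-gene median is -1.29. Ibsp (-1.54) lies below that median and was below 0 under TMM as well. The genes above whose sign changed under this scaling all lie above that median, so those changes do not set them apart from others. The cause of the other changes was not tested. Without Col3a1 in the mesenchymal sum the log2 difference in the share of Pthlh was 0.14.

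Without 1 library in turn, Bglap ran between -0.41 and 0.72 in the fit and between -1.65 and 4.17 CPM as a difference of means, and Phospho1 between -0.00606 and 0.0462 CPM. The shares ran between -0.42 and 0.0061 for Pth1r and between -0.23 and 0.030 for Pthlh, the ratio of Runx2 to Bglap between -0.29 and 0.51, and that of Pthlh to Pth1r between -0.012 and 0.45. The marker sums ran between -0.33 and 0.42 for osteocytes and between -0.012 and 0.27 for osteoclasts. The counts of Phospho1 and Bglap are low, which limits what can be read from them.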
